A study of Mus musculus with 4 samples.

Results

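A set of 10 genes of oxygen sensing and blood vessel growth was followed in mouse cardiac fibroblasts in which the nuclear receptor gene Nr4a3 was knocked down during conversion toward heart muscle cells. The genes were taken by name: Vegfa, Pgf, Flt1, Kdr, Tek, Angpt1, Hif1a, Ndrg1, P4ha1 and Egln3. All 10 were found among the 16383 genes of the deposited count table, and all 10 passed the filter on low counts. RNA-seq was performed on primary adult cardiac fibroblasts (tissue heart, genotype WT, age 3 months) given MGT, the reprogramming factors Mef2c, Gata4 and Tbx5, and collected at day 7. The shNT group (MGT plus a non-targeting short hairpin, 2 libraries) was compared with the shNr4a3 group (MGT plus a hairpin against Nr4a3, 2 libraries), so both groups carried the reprogramming factors and a hairpin. The stated purpose of the study was to learn by which molecular route loss of Nr4a3 raises the yield of induced cardiomyocytes. The labels name neither the hairpin sequences nor the culture or animal behind each library. The p-values therefore measure the spread between these libraries, which may be technical.

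Cells sense oxygen through the hypoxia-inducible factors (HIFs). Prolyl hydroxylases such as the Egln3 product mark the HIF alpha subunit, encoded by Hif1a or Epas1, for destruction when oxygen is present, so HIF-1 alpha is controlled mainly as a protein rather than through its mRNA. When the alpha subunit escapes, it binds short DNA elements with the core ACGTG or GCGTG and switches on genes such as Vegfa, Ndrg1, P4ha1 and Egln3 itself. VEGF-A, made by many stromal cells, and its relative PlGF, the Pgf product, bind receptors that are known mostly from endothelium (Flt1 and Kdr). Angiopoietin-1, made by mural and stromal cells, activates the endothelial receptor Tie2, the Tek product, and steadies vessels.

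Library totals over the listed genes were 28220440 to 30976450 counts. The genes lie on chromosomes 10 to 19, 1 to 5 and part of 6, and genes elsewhere were not analysed here. Nr4a3 itself had 356 and 353 counts in shNT and 18 and 32 counts in shNr4a3 (edgeR adjusted p = 2.65e-06, log2 fold change -3.86, SE 0.27). Genes of the labelled cell type were present in all libraries, with Pdgfra at 338 ± 24.0 normalised counts (CPM, scaled to library size; mean ± SD, n = 2) in shNT and 70.8 ± 5.80 in shNr4a3, and Col1a2 at 2564 ± 121 and 1915 ± 45.2 CPM. Tcf21, a transcription factor of cardiac fibroblasts, had the largest fall of the marker list, with 81.6 and 89.1 CPM in shNT and 9.21 and 7.56 CPM in shNr4a3. Of 9 fibroblast markers tested, 6 were lower and 1 was higher in shNr4a3, and their summed level was 11160 to 11210 CPM in shNT and 7341 to 7995 CPM in shNr4a3. The higher one was Lum, from 7.26 ± 0.369 to 12.9 ± 0.0143 CPM. Col3a1 (1662 ± 35.9 CPM in shNT, 1679 ± 59.9 in shNr4a3) and Ddr2 (434 ± 5.53 and 436 ± 9.49) did not pass. Over all 10736 genes tested, 60.2% were called different between the hairpins (adjusted p under 0.05), 30.7% higher and 29.4% lower in shNr4a3, with a median log2 fold change of 0.02. The scaling of the libraries centres fold changes near 0, so this median and balance are partly set by it.

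The RefSeq promoter table (GRCm38.p6, the same assembly as mm10) matched 8 of the 10 genes; Angpt1 and Ndrg1 had no entry. The upstream 250 bases are shown for the 4 matched genes whose level changed. Matches in the other matched genes are given after them, and elements further from the start were not searched. Capitals mark ACGTG or GCGTG on either strand, which read CACGT or CACGC when the match lies on the other strand. The regions are chr17:46032378-46032627 (minus strand) for Vegfa, chr10:59323046-59323295 (plus strand) for P4ha1, chr5:75978456-75978705 (minus strand) for Kdr and chr4:94739039-94739288 (plus strand) for Tek.
Vegfa: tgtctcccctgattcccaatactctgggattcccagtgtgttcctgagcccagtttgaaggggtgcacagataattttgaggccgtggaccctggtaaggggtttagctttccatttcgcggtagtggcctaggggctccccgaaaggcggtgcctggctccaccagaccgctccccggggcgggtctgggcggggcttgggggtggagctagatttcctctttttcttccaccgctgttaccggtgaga
P4ha1: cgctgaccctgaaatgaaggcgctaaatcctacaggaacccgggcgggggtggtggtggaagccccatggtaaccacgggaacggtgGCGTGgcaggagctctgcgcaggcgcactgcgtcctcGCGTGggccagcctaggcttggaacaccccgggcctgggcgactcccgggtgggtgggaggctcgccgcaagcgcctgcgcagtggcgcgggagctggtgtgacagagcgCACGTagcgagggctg
Kdr: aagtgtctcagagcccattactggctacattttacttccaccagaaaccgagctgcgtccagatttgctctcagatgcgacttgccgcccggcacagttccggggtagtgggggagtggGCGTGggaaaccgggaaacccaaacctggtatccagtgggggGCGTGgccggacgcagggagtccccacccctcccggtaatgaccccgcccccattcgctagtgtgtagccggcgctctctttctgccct
Tek: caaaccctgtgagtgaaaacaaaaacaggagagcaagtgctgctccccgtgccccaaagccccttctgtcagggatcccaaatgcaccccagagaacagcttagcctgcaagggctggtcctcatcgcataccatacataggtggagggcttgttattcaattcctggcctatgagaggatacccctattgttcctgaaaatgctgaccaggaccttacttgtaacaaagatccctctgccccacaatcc
The P4ha1 window held 3 core matches, GCGTG starting at -163 and at -126 and ACGTG on the other strand at -16, counted back from the annotated start. Kdr held GCGTG at -131 and -89. The Vegfa and Tek windows shown held neither core. A further Vegfa window, around a start annotated inside the gene (chr17:46025114-46025413), held 1 match of each core.

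In the whole windows of 300 bases (250 before and 50 after the start, both strands), 7 of the 10 windows of the 8 matched genes held ACGTG or GCGTG. These letters are common: 43.8% of all 32817 promoter windows in the table hold at least 1 of them, 19.6% ACGTG and 32.4% GCGTG. Egln3 had 1 ACGTG at -229, and Hif1a had 3 ACGTG matches, of which those at -135 and -134 overlap in the palindrome CACGTG. On the other strand, Pgf had GCGTG at -124 in 1 of its windows and Flt1 had GCGTG at -184. Pgf, Flt1, Hif1a and Egln3, whose changes did not pass the test, thus all held a core, while Tek held none. The Nr4a binding element AAAGGTCA was found in none of the members' 10 windows and in 1.51% of all windows. A match of letters is a description of the sequence only.

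**Figure D1:**
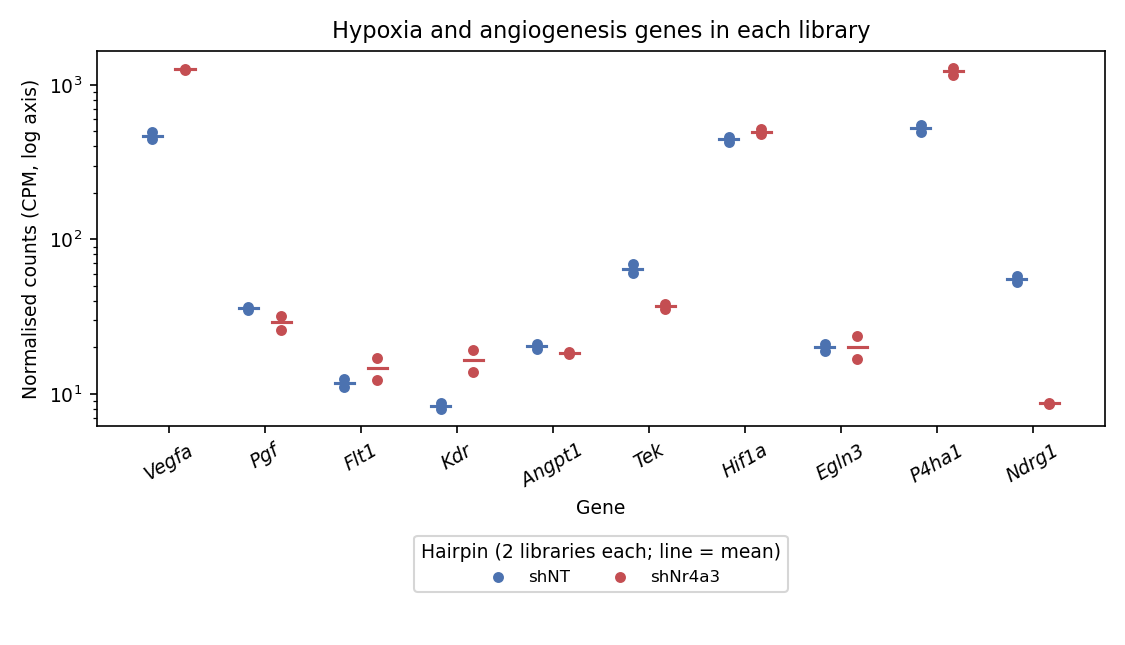
Normalised counts (CPM, log axis) of the 10 genes in each library, blue for shNT and red for shNr4a3, with the mean of each group of 2 libraries as a line. Vegfa and P4ha1 lay between 1159 and 1291 CPM in the shNr4a3 libraries, and Ndrg1 lay at 8.68 and 8.79 CPM there.

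Among the 10 genes, Vegfa, P4ha1 and Kdr rose under shNr4a3, Ndrg1 and Tek fell, and Pgf, Flt1, Angpt1, Hif1a and Egln3 did not pass the test. The count of 5 called among 10 can be set beside the 60.2% called over all genes tested, and the 3 higher and 2 lower beside 30.7% and 29.4%. It is therefore no sign that these genes were affected more often than others. The median log2 fold change of the 10 genes was 0.09. For 8 of the 10 genes every library of one hairpin lay above both of the other, which held for 81.0% of all genes tested. Ndrg1 changed more than most genes, since 4.63% of tested genes had a larger log2 fold change in size, against 17.2% for Vegfa, 22.0% for P4ha1, 29.3% for Kdr and 36.3% for Tek.

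Vegfa (chromosome 17, 46016993 to 46032369, minus strand, protein coding) encodes the main growth factor for endothelial cells. It had 447 and 494 CPM in the shNT libraries and 1271 and 1252 CPM in the shNr4a3 libraries. The lowest shNr4a3 library was above the highest shNT library by more than the spread within either group. The rise was 2.68-fold (edgeR adjusted p = 8.33e-07, log2 fold change 1.42, SE 0.08), and leaving out any single library kept it between 1.33 and 1.49. Leaving out a library leaves its hairpin with 1, which is then assumed to vary like the pair of the other hairpin, here and in every such value that follows. Each value is an average over all cells of a culture, and in such bulk samples fewer cells of a type and less RNA per cell cannot be told apart. Genes listed as markers of other cells also moved: 4 of 5 mural cell markers tested were higher and 1 was lower. Higd1b was at 0 in 3 libraries. The summed level of the mural markers was 450 and 393 CPM in shNT and 1417 and 1370 CPM in shNr4a3. Most of that rise was Des, with 242 and 180 CPM in shNT and 1183 and 1114 CPM in shNr4a3. The summed level therefore mainly follows Des and is not a measure of the number of mural cells. The marker that was lower, Pdgfrb, fell from 152 ± 6.02 to 95.6 ± 4.09 CPM. Of 12 macrophage markers 7 were lower and 5 did not pass (summed level 296 and 246 CPM against 184 and 178 CPM). Of 8 cardiomyocyte markers 6 were higher, among them Nppa and Actc1, and 1, Tnnt2, was lower, and their summed level, mostly Tnnt2, was 15590 and 13360 CPM against 8718 and 7739 CPM. These counts stand beside 60.2% called over all genes tested, 30.7% higher and 29.4% lower. The part of the marker shifts in the values of the 10 genes was not tested.

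Pgf (chromosome 12, 85166635 to 85177790, minus strand) encodes placental growth factor, which binds Flt1 but not Kdr. Its levels were 36.7 and 34.8 CPM in shNT and 32.1 and 26.0 CPM in shNr4a3. Both shNr4a3 libraries were below both shNT libraries, but the difference did not pass (log2 fold change -0.30, SE 0.12, 95% interval -0.57 to -0.03 before adjustment, edgeR adjusted p = 0.0569). With a term for the replicate number the log2 fold change was -0.31 and passed (adjusted p = 0.0228). Without shNr4a3 replicate 1 it was -0.45 (adjusted p = 0.00372), a p that takes its spread between libraries from the shNT pair alone. Vegfb, another VEGF ligand, fell from 7.83 ± 0.113 to 4.76 ± 0.0102 CPM (edgeR adjusted p = 0.00768, log2 fold change -0.72).

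Per kilobase of gene length, Vegfa stood 4.50 and 5.24 times above Pgf in the shNT libraries and 14.6 and 17.8 times above it in the shNr4a3 libraries. Of the summed per-length level of the ligand genes Vegfa, Pgf and Vegfb, Vegfa held 78.8% and 81.1% in shNT and 92.7% and 93.8% in shNr4a3. Pgf held 17.5% and 15.5% in shNT and 6.34% and 5.28% in shNr4a3. The ligand genes measured were thus dominated by Vegfa in every library, and more so in both shNr4a3 libraries. Vegfc and the gene of VEGF-D were not analysed here.

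The receptor genes were expressed far below Vegfa. Kdr (chromosome 5, 75932827 to 75978458, minus strand) encodes VEGFR2, the receptor that carries most VEGF-A signalling in endothelium. It had 228 and 267 counts in shNT and 416 and 592 counts in shNr4a3, or 7.98 and 8.74 CPM against 13.8 and 19.3 CPM. The groups did not overlap, and the shNr4a3 libraries differed from each other more than the shNT libraries did. Kdr rose 1.98-fold (edgeR adjusted p = 0.00127, log2 fold change 0.98, SE 0.18), with 0.71 to 1.21 when any single library was left out. Flt1 (chromosome 5, 147561604 to 147726011, minus strand), which encodes VEGFR1 and a soluble form that traps VEGF-A and PlGF, had 11.1 and 12.5 CPM in shNT and 17.2 and 12.2 CPM in shNr4a3. Its groups overlapped, because shNr4a3 replicate 2 lay within the shNT range, and the difference did not pass (log2 fold change 0.32, 95% interval -0.08 to 0.72, edgeR adjusted p = 0.152). Without that library it was 0.53 (adjusted p = 0.0131), again with the spread between libraries taken from the shNT pair alone. Gene counts do not separate the soluble from the membrane form.

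Other VEGF receptor genes of the table were lower. Flt4, which encodes VEGFR3, the receptor of lymphatic vessels, fell from 17.3 ± 3.12 to 6.34 ± 0.168 CPM (edgeR adjusted p = 6.94e-05, log2 fold change -1.45). Nrp2, a co-receptor for VEGF-C and for semaphorins, fell from 235 ± 5.64 to 90.4 ± 9.05 CPM (edgeR adjusted p = 1.90e-06, log2 fold change -1.38). Counted as a family, 2 of 7 VEGF ligand and receptor genes tested were higher, 3 were lower and 2 did not pass. Over all genes tested, 60.2% were called. Per deposited length (9030 bases for Kdr, 13504 for Flt1), Kdr and Flt1 were level with each other in shNT. Before this division Flt1 was the higher in CPM there. The per-length Kdr to Flt1 ratio was 1.08 and 1.05 in shNT and 1.20 and 2.35 in shNr4a3. The higher of these came from shNr4a3 replicate 2 alone, so the shift in the ratio rests largely on that library.

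Tek (chromosome 4, 94739289 to 94874976, plus strand), the gene of the angiopoietin receptor Tie2, fell. It had 60.4 and 69.2 CPM in shNT and 38.5 and 35.4 CPM in shNr4a3. Both shNr4a3 libraries lay below both shNT libraries, at 0.570 of the shNT level (edgeR adjusted p = 1.33e-04, log2 fold change -0.81, SE 0.10). The value stayed between -0.92 and -0.71 when any single library was left out. Ptprb, the phosphatase that removes phosphate from Tie2, fell from 110 ± 8.57 to 62.5 ± 6.92 CPM (edgeR adjusted p = 1.20e-04, log2 fold change -0.82).

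Angpt1 (chromosome 15, 42424723 to 42676977, minus strand), the ligand gene of Tie2, did not pass. Its levels were 21.2 and 19.5 CPM in shNT and 18.2 and 18.7 CPM in shNr4a3. The shNr4a3 libraries were lower in both cases, and the 95% interval of the log2 fold change ran from -0.40 to 0.12 (-0.14, edgeR adjusted p = 0.307). The per-length ratio of Angpt1 to Tek was 0.388 and 0.312 in shNT and 0.522 and 0.584 in shNr4a3, so ligand transcripts were below receptor transcripts in every library. Exons of Angpt1 overlap an antisense gene, Gm17473, which was not analysed here, and no source used here states whether the counting used strand.

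Of 8 angiopoietin and Tie genes tested, 3 were lower, 1 was higher and 4 did not pass, against 60.2% called over all genes. The median log2 fold change of the 8 was -0.37. Besides Tek and Ptprb, Angptl4, an inhibitor of lipoprotein lipase and a PPAR and hypoxia target, fell from 18.5 ± 1.10 to 7.25 ± 0.703 CPM (edgeR adjusted p = 4.08e-05, log2 fold change -1.35). Angptl2, a secreted angiopoietin-like protein, rose from 114 ± 0.754 to 163 ± 6.68 CPM (edgeR adjusted p = 3.67e-04, log2 fold change 0.51). Tie1 was low, with 22 and 48 counts in shNT and 79 and 56 in shNr4a3 (adjusted p = 0.104). Angpt4 (log2 fold change 0.31, adjusted p = 0.464) and Angptl1 (-0.60, adjusted p = 0.184) did not pass in edgeR either. Without shNT replicate 2, or without shNr4a3 replicate 2, 2 genes of this list were higher instead of 1.

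**Figure D2:**
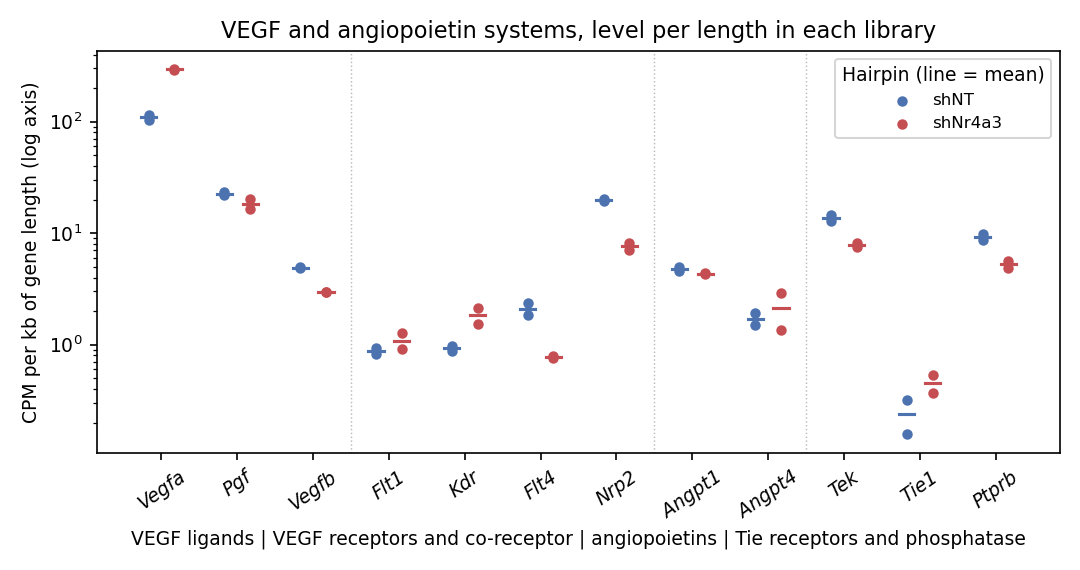
Level per length (CPM per kb, log axis) of ligand and receptor genes of the VEGF and angiopoietin systems, blue for shNT and red for shNr4a3, points for libraries and lines for means. Vegfa lay above every other gene drawn in all 4 libraries, while Flt1, Kdr and Tie1 lay near or below 1 in shNT.

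Kdr, Flt1 and Tek are endothelial genes in most tissues, so the other endothelial markers were counted in the same libraries. Their summed level over 12 markers was 101 and 104 CPM in shNT and 85.1 and 99.9 CPM in shNr4a3. Of the 12 tested, 2 were higher, 5 were lower and 5 did not pass, against 60.2% called over all genes. Without any single library the number lower was 2 or 3, and the number higher was 1 without shNT replicate 1 or without shNr4a3 replicate 2. Pecam1, the adhesion molecule CD31, had 17.9 and 21.8 CPM in shNT and 20.7 and 27.4 CPM in shNr4a3 (edgeR adjusted p = 0.162, log2 fold change 0.27). Emcn, endomucin, rose from 2.55 ± 0.739 to 9.02 ± 1.98 CPM (edgeR adjusted p = 3.00e-04, log2 fold change 1.82), whereas Ecscr fell from 32.2 ± 1.16 to 12.5 ± 0.734 CPM (edgeR adjusted p = 8.05e-06, log2 fold change -1.36). Cldn5 and Sox18 were at or below 2.36 CPM in every library, and no marker was at 0 in all 4. The part of endothelial cells in the values of Kdr, Flt1 and Tek was not tested.

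Hif1a (chromosome 12, 73901375 to 73947530, plus strand) was among the more abundant of the 10 genes. It had 458 and 429 CPM in shNT and 482 and 517 CPM in shNr4a3. The groups did not overlap, but the difference did not pass (log2 fold change 0.17, SE 0.08, 95% interval -0.01 to 0.35, edgeR adjusted p = 0.0889). Without shNr4a3 replicate 1 the log2 fold change was 0.22 (adjusted p = 0.0157), where only the shNT pair gives the spread between libraries. Exons of Hif1a overlap Gm49321 on the same strand and Gm15283 on the other, neither analysed here. These counts say nothing of the HIF-1 alpha protein.

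Egln3 (chromosome 12, 54178981 to 54203860, minus strand) encodes the prolyl hydroxylase PHD3, itself a HIF target that marks HIF alpha for degradation. Its levels were 21.2 and 19.0 CPM in shNT and 16.8 and 23.8 CPM in shNr4a3. The shNr4a3 libraries fell on either side of the shNT libraries, so the groups overlapped (log2 fold change 0.02, SE 0.16, 95% interval -0.36 to 0.39, edgeR adjusted p = 0.942). Its sign depended on the libraries used, with -0.27 without shNr4a3 replicate 2 and 0.25 without shNr4a3 replicate 1, neither past the threshold.

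Of 17 HIF factors and regulators listed, 11 were found among the genes analysed here. Of these 11, all tested, 2 were lower, 1 was higher and 8 did not pass, against 60.2% called over all genes. The median log2 fold change of the 11 was 0.05. Epas1, which encodes HIF-2 alpha, fell from 129 ± 9.65 to 64.8 ± 7.98 CPM (edgeR adjusted p = 3.71e-05, log2 fold change -0.998, SE 0.10). Hif1an, the asparagine hydroxylase that blocks the transactivation domain of HIF alpha, fell from 96.1 ± 3.18 to 40.9 ± 2.21 CPM (edgeR adjusted p = 3.57e-06, log2 fold change -1.23, SE 0.09). Cul2, the scaffold of the ubiquitin ligase that removes HIF alpha, rose from 44.3 ± 2.56 to 56.4 ± 1.60 CPM (edgeR adjusted p = 0.00951, log2 fold change 0.35). Arnt, the partner subunit HIF-1 beta, had 126 ± 6.38 CPM in shNT and 130 ± 8.95 CPM in shNr4a3 (edgeR adjusted p = 0.645, log2 fold change 0.05). The ligase subunits Rbx1, Tceb1 and Tceb2 and the HIF antagonist Cited2 had log2 fold changes between -0.16 and 0.18 and did not pass. Siah2, a ubiquitin ligase for prolyl hydroxylases, was at 1.55 ± 0.0689 and 2.74 ± 0.381 CPM (adjusted p = 0.0556 in edgeR). The Cul2 call was unstable, since no gene of the list was higher without shNT replicate 1, and 3 were without shNr4a3 replicate 1.

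P4ha1 (chromosome 10, 59323296 to 59373304, plus strand), the catalytic subunit of the prolyl 4-hydroxylase that stabilises collagen helices, rose. It had 497 and 554 CPM in shNT and 1291 and 1159 CPM in shNr4a3. Every shNr4a3 library exceeded every shNT library (2.33-fold, edgeR adjusted p = 3.87e-06, log2 fold change 1.22, SE 0.09), and the value was 1.13 to 1.30 when any single library was left out. The gene of its partner subunit, P4hb, which is also the protein disulfide isomerase of the endoplasmic reticulum, fell from 1139 ± 7.26 to 424 ± 33.4 CPM (edgeR adjusted p = 9.19e-07, log2 fold change -1.43, SE 0.08). Per length, P4ha1 stood at 0.302 and 0.340 of P4hb in shNT and at 2.01 and 2.02 times P4hb in shNr4a3. The order of the subunit transcripts was thus opposite in the groups, in every library.

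All 5 collagen hydroxylase genes tested were called, 3 higher and 2 lower, in a table where 60.2% of genes were called, so the count of so short a list is not read as particular to it. The number higher was smaller when either shNT library was left out. P4ha2, the second catalytic subunit, rose from 132 ± 6.42 to 158 ± 3.92 CPM (edgeR adjusted p = 0.0162, log2 fold change 0.27). Plod1, a lysyl hydroxylase, rose from 40.8 ± 3.68 to 92.3 ± 3.41 CPM (edgeR adjusted p = 7.40e-06, log2 fold change 1.18). Plod3, another lysyl hydroxylase, fell from 77.1 ± 5.75 to 46.6 ± 1.93 CPM (edgeR adjusted p = 1.44e-04, log2 fold change -0.73). Exons of Plod3 overlap Znhit1 on the other strand, which was also lower (edgeR adjusted p = 0.0121, log2 fold change -0.37).

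Ndrg1 (chromosome 15, 66929318 to 66969640, minus strand), a stress and hypoxia-induced gene used as a marker of low oxygen, fell the most of the 10. It had 1513 and 1779 counts in shNT and 262 and 270 counts in shNr4a3, or 53.0 and 58.2 CPM against 8.68 and 8.79 CPM. The shNr4a3 libraries were close to each other and far below shNT, at 0.157 of the shNT level (edgeR adjusted p = 1.52e-07, log2 fold change -2.67, SE 0.11). The value lay between -2.75 and -2.60 when any single library was left out. Exons of Ndrg1 overlap Gm17035 and Gm2895 on the other strand, which were not analysed here. Its paralogues moved the same way: Ndrg2 fell from 29.9 ± 4.55 to 5.04 ± 0.594 CPM (edgeR adjusted p = 1.40e-06, log2 fold change -2.57, SE 0.16), and Ndrg3 fell from 65.7 ± 6.55 to 40.9 ± 3.46 CPM (edgeR adjusted p = 4.92e-04, log2 fold change -0.68, SE 0.11). Ndrg4 was not analysed here.

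**Figure D3:**
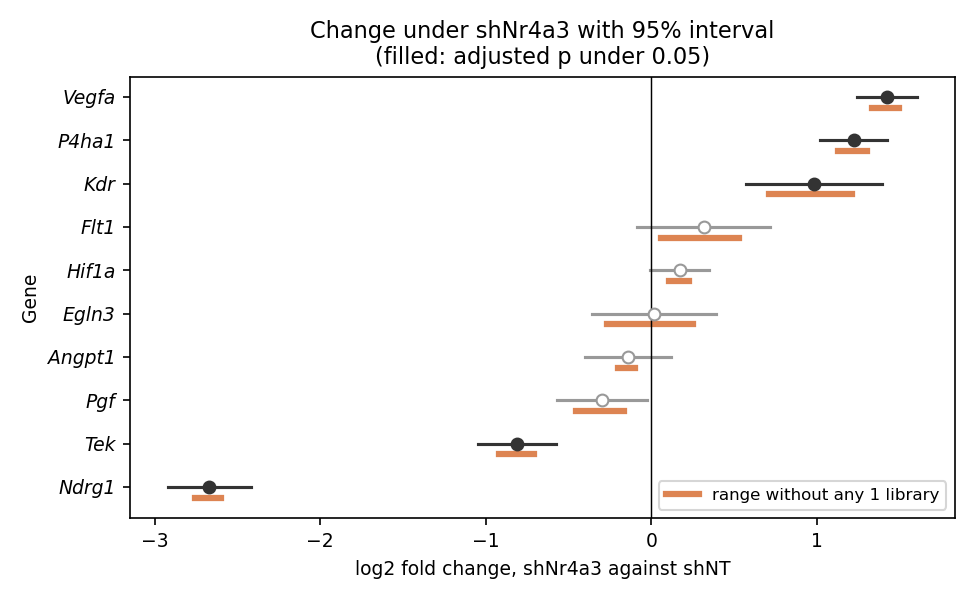
Log2 fold change of the 10 genes, shNr4a3 against shNT, with the 95% interval from the edgeR fit (filled points: adjusted p under 0.05) and, in orange, the range when any single library is left out. Vegfa, P4ha1 and Kdr lie above 0, Tek and Ndrg1 below it, and the orange range of Egln3 spans 0.

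Ordered by level per length, the 10 genes covered a wide range in shNT. P4ha1 was at 128 ± 9.70 CPM per kb, Vegfa at 110 ± 7.69, Hif1a at 75.2 ± 3.48, Pgf at 22.6 ± 0.843 and Tek at 13.8 ± 1.32. Ndrg1 (8.43 ± 0.560), Egln3 (7.54 ± 0.569), Angpt1 (4.78 ± 0.280), Kdr (0.926 ± 0.0589) and Flt1 (0.874 ± 0.0732) followed. Each gene's libraries lay above those of the next in the order except for Kdr and Flt1, which overlapped. In shNr4a3, P4ha1 (298 ± 22.7 CPM per kb) and Vegfa (294 ± 3.19) could not be ordered, nor could Tek (7.84 ± 0.458) and Egln3 (7.62 ± 1.85). Ndrg1 stood below Kdr there, at 1.32 ± 0.0124 against 1.83 ± 0.431 CPM per kb. Among all tested genes, Vegfa had a higher per-length level than 95.7% and 96.2% in the shNT libraries and 98.8% and 98.9% in the shNr4a3 libraries.

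Hypoxia targets outside glycolysis went both ways, as Vegfa, P4ha1 and Ndrg1 did. Of 29 tested, these included, 14 were higher, 9 were lower and 6 did not pass, where 30.7% of all tested genes were higher and 29.4% lower; the median of their log2 fold changes was 0.16. Loxl2, a lysyl oxidase that cross-links collagen, rose from 714 ± 64.0 to 1996 ± 17.5 CPM (edgeR adjusted p = 8.88e-07, log2 fold change 1.48). Stc2, the glycoprotein stanniocalcin-2, rose from 33.9 ± 2.08 to 87.2 ± 7.37 CPM (edgeR adjusted p = 3.97e-06, log2 fold change 1.36). Ndufa4l2, a mitochondrial protein induced by HIF-1, was counted 44 and 58 times in the shNT libraries and 0 times in each shNr4a3 library. Taking 3 counts over the group as the floor makes it at least 35.02-fold lower, if each count is a separate fragment. Its counts are all even, as are those of Cxcr4, Emcn, Pecam1 and Lum in every library. Other genes, Vegfa among them, also had odd counts. Whether both reads of a fragment were counted was not tested. If they were, the bound is lower, and such counts of any gene stand for fewer fragments. The exons of Ndufa4l2 overlap Shmt2 on the other strand, which rose (edgeR adjusted p = 0.00347, log2 fold change 0.50). Cxcr4, a chemokine receptor, was low throughout, with 30 and 24 counts in shNT and 2 and 12 in shNr4a3 (edgeR adjusted p = 0.0434, log2 fold change -1.98). With Ndufa4l2 at its bound the median of the list was also 0.16.

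Of 23 hypoxia targets of glucose metabolism listed, 11 were found among the genes analysed here. Of the 10 tested, 5 were higher, 3 were lower and 2 did not pass, against 60.2% called over all genes. Pdk1, a pyruvate dehydrogenase kinase, rose from 5.29 ± 0.751 to 10.9 ± 0.242 CPM (edgeR adjusted p = 7.85e-04, log2 fold change 1.04). Pgam1 and Ak4 rose by 0.80 and 0.61 on the log2 scale. Slc16a3, the lactate exporter MCT4, fell from 6.22 ± 0.921 to 2.38 ± 0.552 CPM (edgeR adjusted p = 0.00151, log2 fold change -1.39), and Eno1 and Pfkl each fell by 0.29 on the log2 scale. Pgam1 and Eno1 have near-identical copies in the genome, and their counts are uncertain to that extent. Without shNT replicate 1 the counts were 3 higher and 1 lower, and without shNT replicate 2 the number lower was also 1.

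Of 8 other angiogenic factors tested, 1 was higher, 2 were lower and 5 did not pass, against 60.2% called over all genes. Fgf2, basic fibroblast growth factor, fell from 103 ± 5.52 to 39.7 ± 4.27 CPM (edgeR adjusted p = 3.93e-06, log2 fold change -1.38), as did Nudt6, whose exons overlap it on the other strand (edgeR adjusted p = 2.28e-05, log2 fold change -1.32). Edn1, the vasoconstrictor endothelin-1, fell from 42.7 ± 6.39 to 19.4 ± 1.23 CPM (edgeR adjusted p = 5.55e-05, log2 fold change -1.14). Hgf, hepatocyte growth factor, rose from 4.18 ± 0.919 to 7.31 ± 0.482 CPM (edgeR adjusted p = 0.0108, log2 fold change 0.81), a call that was lost without shNT replicate 2, when no gene of the list was higher.

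Of 8 angiogenesis inhibitors tested, 4 were higher, 2 were lower and 2 did not pass, against 60.2% called over all genes. The median log2 fold change of the 8 was 0.84. Vash2, a vasohibin, rose from 1.96 ± 0.00146 to 10.2 ± 0.0747 CPM (edgeR adjusted p = 9.29e-06, log2 fold change 2.37). Its relative Vash1 had 1.60 ± 1.02 CPM in shNT and rose to 6.60 ± 0.107 CPM (edgeR adjusted p = 0.00130, log2 fold change 2.03). Vash2 is described as promoting vessel growth and Vash1 as restraining it, so the list is not of a single direction. Thbs2, the matricellular inhibitor thrombospondin-2, rose from 374 ± 19.2 to 1165 ± 42.2 CPM (edgeR adjusted p = 3.04e-07, log2 fold change 1.64). Col4a3 and Col18a1, collagen genes whose products release the inhibitors tumstatin and endostatin, fell by 3.34 and 0.92 on the log2 scale.

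**Figure D4:**
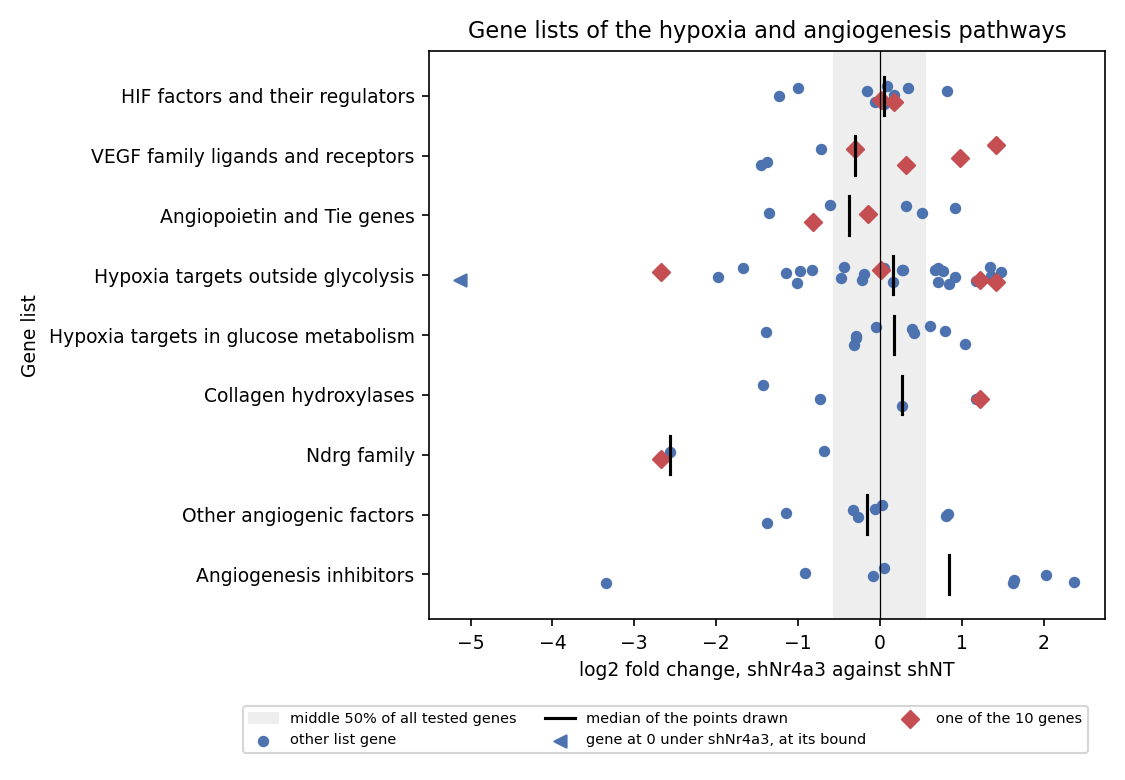
Log2 fold change, shNr4a3 against shNT, of each tested gene in the lists, with the 10 genes as red diamonds, the list median as a black line and the middle 50% of all tested genes in grey. The Ndrg family lies wholly below 0, and the other lists have genes on both sides; the triangle is Ndufa4l2 at its bound.

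The genes whose profile over the 4 libraries lay closest to Vegfa were Wbp1l, C1qtnf2 and Gm43796, among 6896 genes with a mean of at least 10 CPM. Their root-mean-square distances on the centred log2 scale were 0.0062, 0.012 and 0.019. For Ndrg1 they were Col4a4, Pla1a and Uhmk1, at 0.022, 0.038 and 0.044. With 4 libraries in 2 groups, a gene with a like difference between the hairpins is close by this measure.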

How the data were processed

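The authors deposited raw, unscaled counts of reads per gene for every library. Per the submitters' processing notes, Trimmomatic 0.36, SAMtools and featureCounts of Subread 1.5.1 were used with the build mm10. No source used here names the aligner, annotation release or strand setting. Per the labels' protocols, libraries were stranded and depleted of ribosomal RNA, while the molecule label reads polyA RNA.

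All genes were fitted together with the quasi-likelihood test of edgeR 4.0.16 (R 4.3.3), using TMM, filterByExpr, the hairpin as only term and Benjamini-Hochberg adjustment at 0.05. CPM uses TMM-scaled library sizes, so 1 count is worth 0.0326 to 0.0350 CPM. Levels per length divide CPM by the deposited gene length. That length need not be the length of the transcripts present, so ratios and orders between genes are approximate. Each SE is the log2 fold change divided by the square root of F. Intervals use the t quantile of the fit, unadjusted. Libraries of a group differed beyond counting noise (chi-square per degree of freedom 10.6 and 22.1, with each count taken as a separate fragment), so all 4 were kept. Coordinates and exon overlaps are from GENCODE M21 (98.1% of genes matched by symbol and chromosome). The edgeR, DESeq2 and limma-voom fits were tested on simulated data with few genes changed and the same dispersion for every gene. A change as broad as the one in these data was not simulated.

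The members and lists were chosen with earlier results of these data known. The lists that are not of cell types held 110 genes besides the members, of which 73 were found among the genes analysed here. Named were all members, all genes of the HIF, VEGF, angiopoietin, collagen hydroxylase and Ndrg lists, and up to 3 genes per direction with the largest change past the threshold in the other lists that are not of cell types. Of the cell type lists only defining markers were to be named, by level; which of them are named was chosen after their values were seen. Alternatives were other size factors, no filter, DESeq2 1.42.0, limma-voom 3.58.1, a replicate block and each library left out.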

Additional observations from a re-analysis of the deposited data

How the results depend on the processing

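The calls of Vegfa, P4ha1, Kdr, Tek and Ndrg1 kept their direction and passed under all 9 alternatives run for each. Pgf, which did not pass in the edgeR test reported (log2 fold change -0.30), passed at -0.31 with median-of-ratios size factors (edgeR adjusted p = 0.0456), at -0.31 with no low-count filter (0.0484) and at -0.31 with the replicate number as a block (0.0228). The cause was not tested. Leaving out each library in turn gave -0.45 to -0.17 for Pgf, 0.056 to 0.53 for Flt1, 0.11 to 0.22 for Hif1a and -0.27 to 0.25 for Egln3; each of these fits has 1 hairpin with a single library, assumed to vary like the pair of the other. Egln3, with a log2 fold change of 0.02 in the test reported, changed sign at -0.0018 with limma-voom, -0.00016 with the replicate block, -0.06 without shNT replicate 2 and -0.27 without shNr4a3 replicate 2. The replicate numbers do not pair the libraries by their labels, and same-numbered libraries hardly deviated together (correlation across genes 0.02, not independent). The block gave 6659 genes called against 6458 without it and changed no call among the 10 genes other than that of Pgf. Over the whole table the counts of genes higher and lower stayed within 1.5 times under all alternatives. With 228 to 38971 counts per library, counting error is small for the 10 genes, and the 2 libraries per hairpin set the precision. Counting error is larger than these counts imply if both reads of a fragment were counted, which was not tested.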
